A study of Mus musculus with 24 samples.

Results

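The anaphase-promoting complex, or cyclosome (APC/C), is described here through the 10 of its core subunit genes that carry the symbol Anapc: Anapc1, Anapc2, Anapc4, Anapc5, Anapc7, Anapc10, Anapc11, Anapc13, Anapc15 and Anapc16. They were taken by symbol from 37229 gene rows measured in single mouse embryos, and all 10 were found in both deposited tables. The family came to attention because Anapc10 had been selected on its difference between split and control morulae in earlier results of these data, so the values of that contrast are given below as a description, without a test.

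The embryos were ICR mouse embryos made by in vitro fertilisation and grown at 6% CO2 and 5% O2. Control embryos were left whole and collected as 4 8-cell embryos, 5 morulae and 3 blastocysts. Split embryos came from late two-cell embryos held in a biopsy medium and pulled apart mechanically, after which each blastomere grew alone in a modified sodium hyaluronate gel. Both sisters of 3 pairs were collected as morulae (6 embryos) and both sisters of another 3 pairs as blastocysts (6 embryos). The separation, the biopsy medium and the smaller starting embryo came together in every split embryo and cannot be told apart. Whether control embryos also grew in the gel is not stated in the labels. No genotype or age beyond the developmental stage was given, and nothing in the labels states that control embryos of a group came from separate litters or fertilisations, so p-values measure only the spread between these samples. The sisters of a pair were summed to 1 unit, which gave 18 units from 24 embryos: 4 control 8-cell embryos, 5 control morulae, 3 split morula pairs, 3 control blastocysts and 3 split blastocyst pairs.

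The APC/C is a large ubiquitin ligase that marks mitotic proteins such as cyclin B1 and securin for destruction by the proteasome, and so starts anaphase and ends mitosis. Anapc2, a cullin, and Anapc11, a RING protein, form its catalytic module. Anapc1, Anapc4 and Anapc5 form a platform, and an arm of tetratricopeptide subunits (Anapc7, Cdc16, Cdc23 and Cdc27) is held together with the small subunits Anapc13, Anapc16 and Cdc26. Anapc10 and a coactivator, Cdc20 or Fzr1 (also called Cdh1), together form the receptor for the degron motifs of substrates. Anapc15 helps the complex to release the checkpoint proteins that restrain it. Cleavage embryos divide with short gap phases, and the complex acts in each of these divisions.

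The 300-base promoter windows of Anapc10 and Anapc16 are shown because these were the members that fell between control morulae and control blastocysts. They are RefSeq sequences of build GRCm38.p6, run 5′ to 3′ on the gene's strand, and cover 250 bases before and 50 bases after the transcription start. The Anapc10 window, the first of 2 listed for that gene, lies at chr8:79711513-79711812 on the plus strand. The Anapc16 window lies at chr10:60003086-60003385 on the minus strand. Capitals mark a cAMP response element and a CCAAT box in Anapc10 and a cell cycle homology region (CHR) in Anapc16.
Anapc10: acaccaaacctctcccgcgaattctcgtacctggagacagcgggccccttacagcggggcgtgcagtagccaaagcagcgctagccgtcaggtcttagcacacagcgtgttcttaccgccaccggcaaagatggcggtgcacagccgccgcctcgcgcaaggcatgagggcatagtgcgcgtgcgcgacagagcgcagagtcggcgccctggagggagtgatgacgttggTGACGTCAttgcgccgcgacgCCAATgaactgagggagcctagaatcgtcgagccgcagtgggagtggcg
Anapc16: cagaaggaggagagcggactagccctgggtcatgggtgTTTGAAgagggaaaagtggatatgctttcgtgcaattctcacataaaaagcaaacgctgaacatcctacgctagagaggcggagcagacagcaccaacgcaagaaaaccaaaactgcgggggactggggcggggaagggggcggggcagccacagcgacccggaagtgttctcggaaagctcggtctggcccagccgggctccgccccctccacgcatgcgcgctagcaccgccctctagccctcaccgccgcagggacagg
The motifs were chosen after the sequences had been seen, and each was searched on both strands in 32851 promoter windows of the same length. The cAMP response element, TGACGTCA, reads the same on both strands and stood at bases 231 to 238 of the Anapc10 window. It was present in 1.79% of all windows and in no other member. CCAAT stood at bases 252 to 256 of the Anapc10 window, was also found in Anapc5 and Anapc11, and was present in 37.4% of all windows. The CHR letters, TTTGAA, stood at bases 39 to 44 of the Anapc16 window, were also found in Anapc7, and were present in 17.9% of all windows. The E2F letters TTTCCCGC were found in Anapc15 and in 1.07% of all windows, and TTTGGCGC was found in no member and in 0.514% of all windows. None of the matches overlapped another in the windows shown. All 10 members were matched to RefSeq, with 13 windows between them. A match describes the letters only.

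In TPM, a level scaled by gene length and library size that can be compared between genes, Anapc10 had the highest median of the 10 members in all 5 groups. Its median level was 413 TPM in control 8-cell embryos (lowest 352, highest 461), 495 TPM in control morulae (368 to 579) and 245 TPM in split morulae (180 to 315, with the lowest at 179.9). In control blastocysts it was 159 TPM (112 to 196) and in split blastocysts 146 TPM (100.3 to 211). The next member down differed by group: Anapc16 in control 8-cell embryos at 148 TPM, Anapc11 in control morulae at 61.6 TPM, Anapc5 in split morulae at 105 TPM, Anapc13 in control blastocysts at 123 TPM and Anapc5 in split blastocysts at 99.7 TPM. Embryos did not overlap between Anapc10 and this next member in the 8-cell and morula groups. They did overlap in both blastocyst groups.

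At the low end, Anapc1, the largest subunit of the platform, had the lowest median in control morulae (4.92 TPM), split morulae (6.40), control blastocysts (8.40) and split blastocysts (4.28). In control 8-cell embryos the lowest was Anapc2, at 3.95 TPM, and its embryos overlapped those of Anapc1 at 6.92 TPM. The middle of the order was crowded. In control morulae Anapc11, Anapc13, Anapc16 and Anapc5 followed each other with medians of 61.6, 59.6, 57.7 and 57.2 TPM, and each overlapped the next. Anapc7, Anapc15, Anapc4 and Anapc2 came below them at 20.1, 17.5, 16.6 and 13.7 TPM, again with each overlapping the next.

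Anapc10 alone made up a median of 50.4% of the summed TPM of the 10 members in control 8-cell embryos and 62.1% in control morulae. The share was 38.5% in split morulae, 30.7% in control blastocysts and 26.5% in split blastocysts. The other 9 members summed to medians of 410 TPM in control 8-cell embryos, 308 in control morulae, 383 in split morulae, 375 in control blastocysts and 397 in split blastocysts. Summed over all 10 members the medians were 823, 829.9, 635, 542 and 533 TPM in the same order.

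**Figure D1:**
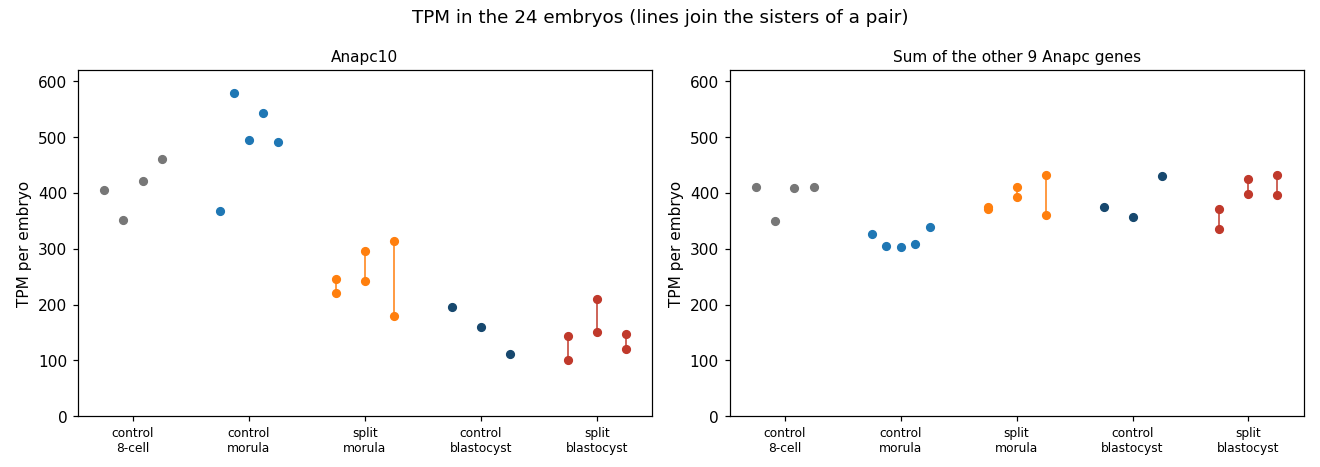
TPM per embryo (vertical axes, same scale) for Anapc10 on the left and for the sum of the other 9 members on the right, by group, with lines joining sister embryos. The 5 control morulae sit between 368 and 579 TPM for Anapc10, above all 6 split morulae at 179.9 to 315 TPM, while the sum of the other 9 stays between 302 and 433 TPM over all embryos.

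From control 8-cell embryos to control morulae, Anapc16 and Anapc7 fell and no member rose. This was tested in the all-gene fit with edgeR's quasi-likelihood test over 15875 genes, and a gene was called where its p, adjusted by Benjamini-Hochberg, was under 0.05. The count of 0 higher of 10 compares with 14.3% of all genes called higher, and the count of 2 lower with 10.7% of all genes called lower, which for so few members is close to the background. The median fitted log2 fold change of the members was -0.21, beside 0.09 for all genes tested. At an unadjusted p under 0.05 there were 3 members, Anapc7 and Anapc16 lower and Anapc5 higher. The share of all genes at that unadjusted threshold was not computed, so such counts, here and below, have no background beside them. DESeq2 called 2, limma-voom 3 and limma on log2 TPM 2. For these 3 tools, here and below, no share of all genes called is given, so their counts have no background either. Of the 4 core subunits without an Anapc symbol, Cdc26 rose, Cdc27 fell, and Cdc16 and Cdc23 did not pass.

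From control morulae to control blastocysts, Anapc10 and Anapc16 fell and no member rose. The count of 2 lower of 10 stands beside 7.46% of all genes called lower, and the count of 0 higher beside 3.12% called higher. At an unadjusted p under 0.05 there were 3 lower, Anapc15 being the other, and 0 higher. DESeq2 called 3, limma-voom 2 and limma on log2 TPM 3. The median of the members was -0.31, beside 0.11 for all genes. Cdc16 also fell, and Cdc23, Cdc26 and Cdc27 did not pass. This contrast and the preceding one share the 5 control morulae, which also stood in the contrast from which Anapc10 was chosen.

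From split morulae to split blastocysts, Anapc10 fell and no other member passed the test. The count of 1 lower of 10 stands beside 2.95% of all genes called lower, and 0 higher beside 1.22% called higher. At an unadjusted p under 0.05 there were 3 lower (Anapc1, Anapc7 and Anapc10) and 0 higher, and DESeq2, limma-voom and limma on log2 TPM each called 1. The median of the members was -0.31, beside 0.05 for all genes. The 3 split morula pairs of this contrast were also part of the contrast from which Anapc10 was chosen. None of Cdc16, Cdc23, Cdc26 and Cdc27 passed, and 0 of these 4 had an unadjusted p under 0.05.

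Between split and control blastocysts no member was called by edgeR, in either direction. In all genes 3.42% were called higher in split blastocysts and 1.32% lower. At an unadjusted p under 0.05 there were 3 members, Anapc5, Anapc11 and Anapc16, all with higher levels in split blastocysts. DESeq2, limma-voom and limma on log2 TPM each called 0 members. The median of the members was 0.14, beside 0.00 for all genes, and the range was -0.66 (Anapc1) to 0.82 (Anapc5).

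Between split and control morulae the members are described without a test. The fitted log2 fold changes ran from -1.16 for Anapc10 to 0.87 for Anapc2, with a median of 0.08 beside 0.00 for all genes. In this contrast 0.0693% of all genes were called higher in split morulae and 0.0567% lower, and Anapc10 was among the latter, which is how it was chosen. It was not past that threshold in 6 of 27 alternatives, among them those without control morula 2 or 3 or without split morula pair 2 or 3. For the difference between the split effects at the blastocyst and the morula, 1.37% of all genes were called higher and 0.265% lower. No member passed in that test apart from Anapc10, whose value of 1.30 ± 0.29 (log2, SE) is a description only, because its morula part chose the gene.

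**Figure D2:**
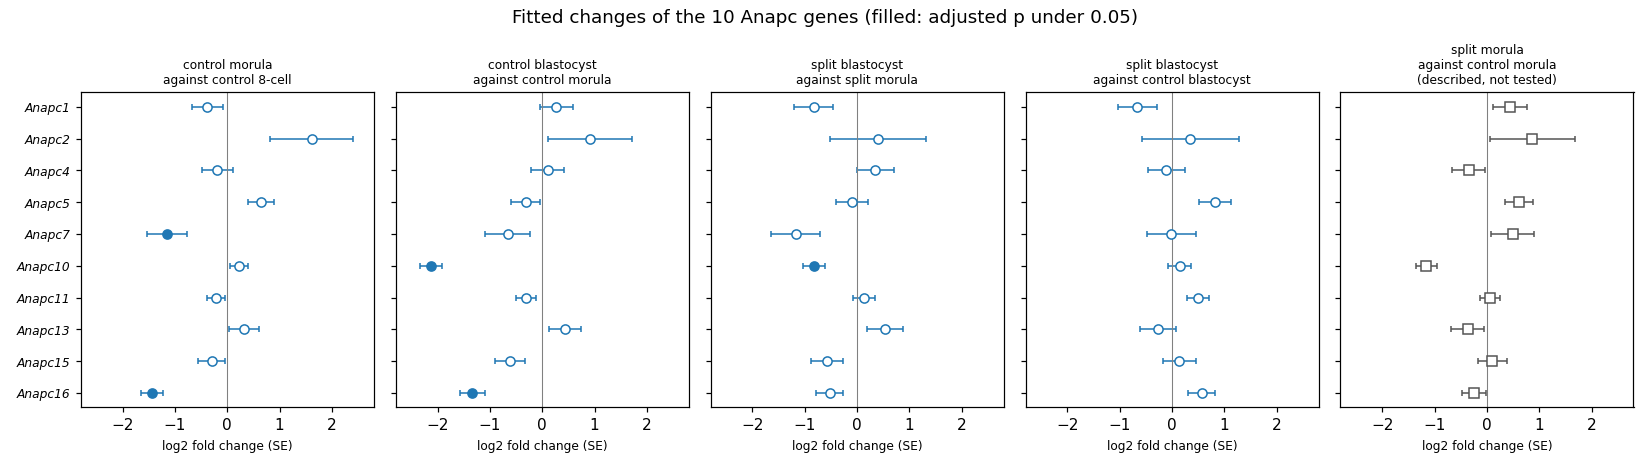
Fitted log2 fold change (horizontal axis, with SE bars) of the 10 members in 5 contrasts, filled where edgeR's adjusted p was under 0.05, with squares for the contrast that is described without a test. Filled points lie at Anapc7 and Anapc16 in the first panel, Anapc10 and Anapc16 in the second, Anapc10 in the third, and nowhere in the fourth.

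The values below are read counts scaled to library sizes with TMM factors (normalised CPM), which compare 1 gene between groups. They begin with the substrate receptor. Anapc10 had 944, 801, 965 and 948 CPM in the 4 control 8-cell embryos and 764, 1304, 1045, 1188 and 1033 CPM in the 5 control morulae. These groups overlapped, with means of 915 ± 76.2 (SD, n = 4) and 1067 ± 203 (SD, n = 5), and the fitted difference of 0.22 ± 0.18 (log2, SE) did not pass (adjusted p = 0.387, edgeR). The 3 control blastocysts had 306, 262 and 164 CPM. Each lay far below the lowest control morula.

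The mean of Anapc10 in control blastocysts was 244 ± 72.8 CPM (SD, n = 3), which was 4.38-fold lower than in control morulae. The log2 fold change was -2.13 ± 0.21 (SE, edgeR adjusted p = 6.75e-07), and the call held in 27 of 27 alternatives. The control morulae of this test also stood in the contrast that chose Anapc10, a choice that favours high control morulae. Neither the p nor the alternatives, which draw on the same embryos, are independent of that choice. The 3 split morula pairs had 461, 510.4 and 463 CPM, with a mean of 478 ± 27.9 (SD, n = 3). As pair sums, all 3 lay below the 5 control morulae and above the 3 control blastocysts. The sums and their SD hide the spread between sisters. Scaled as single embryos, the lower sister of split morula pair 3 had 311 CPM, below control blastocyst 1 at 322 CPM. Against control morulae the mean of the split morula pairs was 2.23-fold lower and the fitted log2 value -1.16 ± 0.20 (SE), given as a description.

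Split blastocysts had 238, 333 and 239 CPM of Anapc10, with a mean of 269.6 ± 54.5 (SD, n = 3). As pair sums they did not overlap the split morulae, but single embryos did. Scaled singly, the highest split blastocyst had 381 CPM and the lowest split morula 311 CPM. The fall of 1.77-fold between those stages had a log2 value of -0.83 ± 0.22 (SE, edgeR adjusted p = 0.0306). The split morula pairs also stood in the contrast that chose Anapc10, so this p is not independent of that choice. The call was lost in 5 of 27 alternatives, in 4 of them on leaving out 1 pair: split morula pair 2 (adjusted p = 0.0900), split morula pair 3 (0.0629), split blastocyst pair 1 (0.163) or split blastocyst pair 3 (0.162). In the other one, a fit of only the compared groups, the adjusted p was 0.0635. Split and control blastocysts overlapped in Anapc10, with a log2 difference of 0.15 ± 0.22 (SE, edgeR adjusted p = 0.909).

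**Figure D3:**
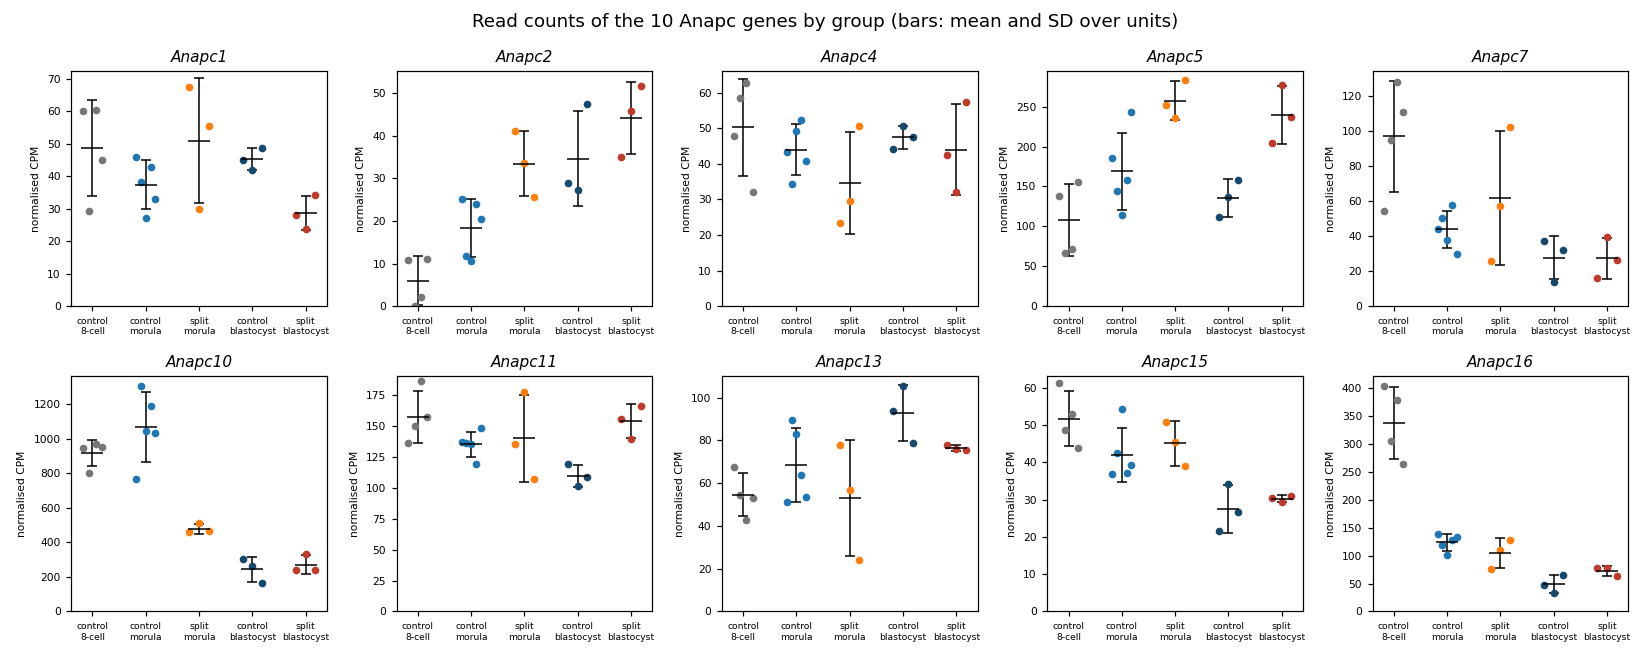
Normalised CPM (vertical axes, starting at 0) of the 10 members by group; points are units and bars the mean and SD. Anapc10 stands at 764 to 1304 CPM in control morulae, 461 to 510.4 in split morulae and 164 to 333 in the 2 blastocyst groups, and Anapc16 falls from 263 to 403 CPM in 8-cell embryos to 33.8 to 66.0 in control blastocysts.

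The coactivators share substrate recognition with Anapc10. Like Anapc10, Cdc20 fell from morula to blastocyst in control and split embryos, while Fzr1 rose in controls. Cdc20, which acts from metaphase and is the target of the spindle checkpoint, rose from 269 ± 37.7 CPM (SD, n = 4) in control 8-cell embryos to 455 ± 113 (SD, n = 5) in control morulae (log2 0.76 ± 0.21 SE, edgeR adjusted p = 0.0129). It fell to 157 ± 17.9 CPM (SD, n = 3) in control blastocysts (log2 -1.53 ± 0.25 SE, edgeR adjusted p = 1.66e-04). In split embryos Cdc20 fell from 829 ± 303 CPM in morulae to 368 ± 66.8 in blastocysts (SD, n = 3 each; log2 -1.17 ± 0.26 SE, edgeR adjusted p = 0.00997). It was 2.34-fold higher in split than in control blastocysts (log2 1.23 ± 0.26 SE, edgeR adjusted p = 0.00611), with no overlap. Split and control morulae overlapped for Cdc20, and the difference did not pass (log2 0.86 ± 0.23 SE, edgeR adjusted p = 0.113).

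Fzr1, the coactivator of late mitosis and G1, had 1.53, 1.62, 14.8 and 4.89 CPM in control 8-cell embryos and 3.29, 0.133, 8.07, 2.68 and 6.14 CPM in control morulae. In control blastocysts it had 19.7, 38.1 and 38.7 CPM, above every control morula, a rise of 2.99 ± 0.83 on the log2 scale (SE, edgeR adjusted p = 0.0213). In split embryos it had 7.29, 11.4 and 23.4 CPM as morulae and 31.3, 26.7 and 34.5 as blastocysts, and that difference of 1.14 ± 0.94 (log2, SE) did not pass (edgeR adjusted p = 0.563). So Cdc20 fell and Fzr1 rose between control morulae and control blastocysts, the same step at which Anapc10 fell.

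In the tetratricopeptide arm, Anapc16, a small subunit bound to it, had 403, 305, 378 and 263 CPM in control 8-cell embryos and 138, 119, 101, 127 and 134 CPM in control morulae. The groups did not overlap, and the fall was 2.72-fold (log2 -1.45 ± 0.21 SE, edgeR adjusted p = 2.72e-05). Control blastocysts had 47.2, 33.8 and 66.0 CPM, a further fall of 2.53-fold without overlap (log2 -1.34 ± 0.24 SE, edgeR adjusted p = 6.22e-04). Both calls held in 27 of 27 alternatives.

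Split morula pairs had 75.5, 111 and 127 CPM of Anapc16, overlapping the control morulae. Split blastocysts had 78.0, 77.7 and 62.8 CPM and overlapped the split morulae. That difference did not pass (log2 -0.52 ± 0.26 SE, edgeR adjusted p = 0.256), nor did the one between split and control blastocysts (log2 0.57 ± 0.26 SE, edgeR adjusted p = 0.284). The difference of the split effects at the 2 stages was 0.82 ± 0.35 for Anapc16 (log2, SE, edgeR adjusted p = 0.274).

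Anapc7, a tetratricopeptide subunit of the arm, had 54.2, 94.5, 128 and 111 CPM in control 8-cell embryos and 44.1, 50.1, 37.4, 57.4 and 29.5 CPM in control morulae. One 8-cell embryo lay within the range of the morulae. The fall was 2.22-fold (log2 -1.15 ± 0.38 SE, edgeR adjusted p = 0.0320), and the call was lost in 8 of 27 alternatives, in 6 of them on leaving out 1 embryo: control 8-cell 2 (adjusted p = 0.0514), 3 (0.0930) or 4 (0.0703), or control morula 1 (0.0561), 3 (0.0654) or 5 (0.0713). Later groups ranged widely: 26.0, 56.9 and 102 CPM in split morulae, 36.9, 13.6 and 32.3 in control blastocysts, and 16.1, 39.3 and 26.4 in split blastocysts. The difference between the split stages was the largest of any member in that contrast but did not pass (log2 -1.18 ± 0.47 SE, edgeR adjusted p = 0.175).

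The other arm subunits moved in both directions between 8-cell and morula. Cdc27, which binds the tails of the coactivators and of Anapc10, fell from 283 ± 59.0 to 93.2 ± 30.8 CPM (SD, n = 4 and 5; log2 -1.60 ± 0.25 SE, edgeR adjusted p = 4.90e-05). Cdc26, a small subunit that steadies Cdc16, rose from 39.5 ± 6.43 to 127 ± 28.5 CPM (SD, n = 4 and 5; log2 1.68 ± 0.26 SE, edgeR adjusted p = 5.68e-05). Neither pair of groups overlapped.

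Cdc16 went from 96.9 ± 42.2 CPM in control morulae to 44.8 ± 6.32 in control blastocysts (SD, n = 5 and 3; log2 -1.11 ± 0.29 SE, edgeR adjusted p = 0.0153). Split blastocysts had 88.8, 90.4 and 86.8 CPM of Cdc16 against 50.5, 46.0 and 38.0 in control blastocysts. Those groups did not overlap, and the difference did not pass over all genes (log2 0.98 ± 0.32 SE, edgeR adjusted p = 0.0857). The pair sums hide the spread between sisters: scaled singly, the split blastocysts ran from 56.8 to 135 CPM of Cdc16. The fit also shared 1 estimate of the spread over all 5 groups. Cdc23 had a like pattern in blastocysts, 73.8, 71.9 and 70.8 CPM in split against 27.8, 20.1 and 22.8 in control, and did not pass either (log2 1.61 ± 0.54 SE, edgeR adjusted p = 0.104). Cdc27 ran the other way, with 51.1, 78.6 and 51.6 CPM in split against 108, 95.4 and 85.9 in control blastocysts, also without overlap and not passing (log2 -0.68 ± 0.30 SE, edgeR adjusted p = 0.273). Cdc26 overlapped, at 113 ± 4.12 and 89.7 ± 26.4 CPM (SD, n = 3 each). Exons of Cdc23 share 1271 bases with Kif20a on the opposite strand in the GENCODE M21 annotation, and without stated strand counting the reads of the 2 genes cannot be told apart.

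Anapc13, a small subunit that holds the arm together, had group means from 52.9 ± 27.1 CPM (SD, n = 3) in split morulae to 92.8 ± 13.2 (SD, n = 3) in control blastocysts. No contrast passed for it with edgeR, while limma on log2 TPM called it higher in control blastocysts than in control morulae (0.92 on the log2 scale, adjusted p = 0.0287). Its exons share 239 bases with Cep63 on the opposite strand, so the same limit applies.

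In the catalytic module, Anapc2 was scarce in control 8-cell embryos, with 10.8, 0, 2.25 and 11.0 CPM. The embryo at 0 had no read, which allows up to 0.0997 CPM at 3 counts of its total, for counting error only. Control morulae had 25.1, 11.7, 10.6, 23.9 and 20.5 CPM, with 1 embryo within the 8-cell range. The fitted log2 difference of 1.61 ± 0.79 (SE) did not pass with edgeR (adjusted p = 0.139), although limma-voom (adjusted p = 0.0311) and limma on log2 TPM (adjusted p = 0.0114) called it.

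Later groups held more Anapc2: 41.0, 33.6 and 25.7 CPM in split morulae, 28.9, 27.4 and 47.3 in control blastocysts, and 34.9, 45.7 and 51.6 in split blastocysts. As pair sums, split morulae lay narrowly above all control morulae, which is given as a description. Scaled as single embryos they overlapped, the lowest split morula having 22.8 CPM and the highest control morula 24.9 CPM of Anapc2. The highest group mean was 7.34-fold the lowest, and 5.51-fold without the 8-cell embryo at 0, beside 6.89-fold for Anapc16. Anapc11, the RING partner of Anapc2, spanned only 1.44-fold over groups, from 110 ± 8.95 CPM in control blastocysts to 158 ± 21.0 in control 8-cell embryos (SD, n = 3 and 4), and passed in no contrast. In blastocysts its 156, 140 and 167 CPM in split units lay above the 119, 101 and 109 in controls, with a log2 difference of 0.49 ± 0.21 (SE, edgeR adjusted p = 0.255).

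The E2 enzymes hand ubiquitin to this module. Counts for these and the following lists are to be read beside the shares of all genes called: 14.3% higher and 10.7% lower from 8-cell to morula, 3.12% and 7.46% from control morula to control blastocyst, 1.22% and 2.95% between the split stages, and 3.42% and 1.32% in split against control blastocysts. Of 5 listed, 3 fell and 0 rose from control 8-cell embryos to control morulae, the same counts as at an unadjusted p under 0.05. Ube2c, which places the first ubiquitins, fell from 524 ± 58.8 to 355 ± 39.7 CPM (SD, n = 4 and 5; log2 -0.56 ± 0.16 SE, edgeR adjusted p = 0.0150). Ube2s, which lengthens the chains, fell from 100.2 ± 12.6 to 39.7 ± 8.29 CPM (log2 -1.33 ± 0.30 SE, edgeR adjusted p = 0.00205), and Ube2d2a fell by 1.61 on the log2 scale.

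From control morulae to control blastocysts, Ube2c fell again, to 189.8 ± 18.6 CPM (SD, n = 3; log2 -0.90 ± 0.18 SE, edgeR adjusted p = 0.00178). Ube2d3 fell by 0.97 and Ube2d2a rose by 1.02 on the log2 scale. Between the split stages 0 of 5 passed with edgeR, and 1 had an unadjusted p under 0.05. In split against control blastocysts 1 of 5 rose, Ube2d3, from 339 ± 53.7 to 679 ± 50.2 CPM (SD, n = 3 each; log2 1.00 ± 0.20 SE, edgeR adjusted p = 0.00387). Ube2s was at 17.7 ± 1.63 CPM in split and 39.3 ± 18.5 in control blastocysts, which did not pass (edgeR adjusted p = 0.0802). Between split and control morulae 0 of the 5 passed with edgeR, and 0 had an unadjusted p under 0.05.

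Among platform subunits, Anapc5 had 138, 66.1, 71.9 and 156 CPM in control 8-cell embryos and 186, 144, 115, 158 and 243 in control morulae. These overlapped, and the difference did not pass (log2 0.65 ± 0.25 SE, edgeR adjusted p = 0.0645). On leaving out control 8-cell embryo 1 or 4, or control morula 3, it did pass (adjusted p = 0.0432, 0.0202 and 0.0391). Split morulae had 252, 236 and 284 CPM, with control morula 5 inside that range.

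Split blastocysts had 205, 277 and 238 CPM of Anapc5 against 111, 137 and 158 in control blastocysts. Every split unit lay above every control, and the 1.77-fold difference in means was the largest of any member in that contrast (log2 0.82 ± 0.31 SE, edgeR adjusted p = 0.159). It passed only in the fit of the compared groups alone (adjusted p = 0.0264). Anapc1 ran the other way, with 28.1, 23.7 and 34.1 CPM in split and 45.2, 41.9 and 48.7 in control blastocysts, and did not pass (log2 -0.66 ± 0.36 SE, edgeR adjusted p = 0.415).

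Anapc4 had group means from 34.6 ± 14.3 CPM in split morulae to 50.3 ± 13.7 in control 8-cell embryos (SD, n = 3 and 4), a span of 1.46-fold, and passed in no contrast. Anapc15 went from 51.7 ± 7.33 CPM in control 8-cell embryos to 27.5 ± 6.43 in control blastocysts (SD, n = 4 and 3), by way of 42.0 ± 7.19 in control morulae (SD, n = 5). Its step from morula to blastocyst was without overlap and did not pass (log2 -0.61 ± 0.28 SE, edgeR adjusted p = 0.183), while DESeq2 called it (adjusted p = 0.0389). Anapc15 is uncertain, since its exons share 1981 bases with Tomt on the opposite strand and a pseudogene, Anapc15-ps, has a row of its own.

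Of the genes listed as inhibitors or checkpoint factors of the complex, 13 of 14 could be tested (Fbxo43 was too low). The list does not separate genes that restrain the complex from genes that end the checkpoint, such as Trip13 and Mad2l1bp. Its counts therefore give no direction of restraint. From control 8-cell embryos to control morulae 2 rose and 4 fell, beside 14.3% and 10.7% of all genes. Bub3 rose from 118 ± 38.7 to 446 ± 36.6 CPM and Mad2l2 fell from 254 ± 107 to 35.6 ± 14.8 CPM (SD, n = 4 and 5; log2 1.92 ± 0.19 and -2.84 ± 0.35 SE). Mad2l1bp fell by 1.46 and Knl1 by 1.32 on the log2 scale. Fbxo5 (Emi1), an inhibitor that acts as a pseudosubstrate, was at 74.5 ± 47.6 and 124 ± 29.8 CPM, which did not pass (edgeR adjusted p = 0.133).

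From control morulae to control blastocysts 5 of the 13 fell and 0 rose, and at an unadjusted p under 0.05 there were 7 lower and 2 higher. Bub3 fell to 155 ± 10.2 CPM, Trip13 from 169 ± 35.7 to 61.9 ± 18.1, Mad2l1 from 319 ± 32.3 to 137 ± 38.9, and Fbxo5 to 49.7 ± 9.80 (SD, n = 5 and 3; edgeR adjusted p = 0.0385 for Fbxo5). Between the split stages 1 fell, Mad2l1 (log2 -0.99 ± 0.21 SE, edgeR adjusted p = 0.00685). In split against control blastocysts 2 rose, Mad2l2 (67.1 ± 10.4 against 15.4 ± 6.15 CPM) and Bub3 (320.4 ± 38.3 against 155 ± 10.2 CPM, SD, n = 3 each), with log2 values of 2.13 ± 0.43 and 1.05 ± 0.22 (SE). Fbxo5 did not pass there (edgeR adjusted p = 0.473). Between split and control morulae 0 of 13 passed with edgeR, and 1 had an unadjusted p under 0.05.

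Of 23 genes listed as substrates, with the securin partner Espl1 (separase) counted among them, 5 rose and 9 fell from control 8-cell embryos to control morulae, beside 14.3% and 10.7% of all genes. Espl1 fell by 2.00, Nek2 by 1.60 and Anln by 1.54 on the log2 scale, and Cdca3 rose by 1.65. Ccnb1, cyclin B1, had 1705 ± 115 and 1548 ± 261 CPM (SD, n = 4 and 5) and did not pass (edgeR adjusted p = 0.688). From control morulae to control blastocysts 3 rose and 5 fell. Ccnb1 fell 5.04-fold to 307 ± 47.4 CPM (SD, n = 3; log2 -2.33 ± 0.26 SE, edgeR adjusted p = 2.32e-06), Tk1 fell by 1.34 and Ccna2 by 1.26, while Espl1 rose by 1.75 on the log2 scale.

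Between the split stages 0 rose and 5 fell, and at an unadjusted p under 0.05 there were 0 higher and 9 lower. Ccnb1 fell from 1483 ± 836 to 596 ± 100.5 CPM (SD, n = 3 each; log2 -1.31 ± 0.27 SE, edgeR adjusted p = 0.00511), Skp2 by 1.90, Nek2 by 1.33 and Cdc6 by 1.02. In split against control blastocysts 3 rose, Tk1 (log2 1.36 ± 0.23 SE), Rrm2 (1.23 ± 0.21) and Ccnb1 (0.96 ± 0.26, edgeR adjusted p = 0.0370), and Top2a fell (-1.47 ± 0.23). Between split and control morulae 0 of 23 passed with edgeR. At an unadjusted p under 0.05 there were 10, of which 9 were higher and 1 lower in split morulae. The share of all genes at that threshold was not computed, so no direction of the list is read from this count. These lists hold genes with other roles besides the APC/C, so their counts describe the genes named.

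**Figure D4:**
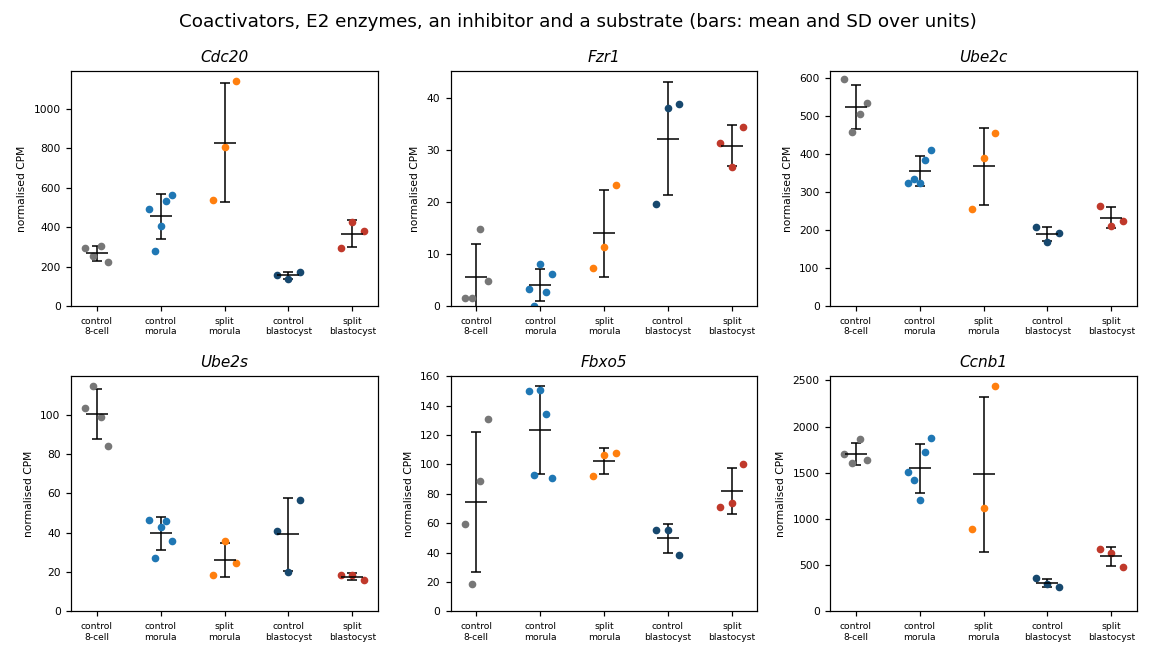
Normalised CPM (vertical axes, starting at 0) of 2 coactivators, 2 E2 enzymes, the inhibitor Fbxo5 and the substrate Ccnb1 by group; points are units and bars the mean and SD. Cdc20, Ube2c and Ccnb1 are lower in every control blastocyst than in any control morula, while Fzr1 is higher, and Cdc20 and Ccnb1 are higher in all 3 split blastocyst units than in the 3 controls.

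The genes whose pattern lay nearest to Anapc10 were found by the root mean square difference of centred log2 CPM over the 18 units, among the 6551 genes that averaged 3 or more in log2 CPM. The nearest were Taf13 (0.34), Zfp706 (0.35), Eed (0.36) and Paip2 (0.39). Taf13, a subunit of the general transcription factor TFIID, had 390 ± 62.3 CPM in control morulae, 235 ± 31.0 in split morulae and 104 ± 46.2 in control blastocysts (SD, n = 5, 3 and 3). Eed, a Polycomb repressive complex subunit, had 512 ± 120.9, 335 ± 40.9 and 166 ± 32.8 CPM in the same groups. Among the members, which were left out of that ranking, the nearest were Anapc15 at 0.71 and Anapc16 at 0.72. The farthest member was Anapc2, at 2.70. The 4 genes were picked for the smallest distances, so their lying nearer than the members is no result. The 18 units also hold the morulae through which Anapc10 was chosen. Lower levels of these 4 genes in split morulae therefore follow from how they were picked.

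Sister embryos came from the same two-cell embryo. The median absolute log2 difference between sisters over 6 pairs was 0.11 for Anapc15, 0.19 for Anapc16 and Anapc11, 0.40 for Anapc10 and 0.80 for Anapc1, beside 0.48 over the 6421 genes that averaged 3 or more in log2 CPM, which were not matched to the members in abundance. The largest difference in Anapc10 was 0.98, in split morula pair 3, where the embryos had 315 and 179.9 TPM. Anapc7 differed most in split morula pair 1, by 1.55, and Anapc13 in split morula pair 3, by 1.19. Both sisters of split morula pair 3 lay below the lowest control morula in Anapc10, at 368 TPM. This is a description only, because Anapc10 was chosen on that difference.

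Totals were 26.3 to 38.5 M counts in control 8-cell embryos and 11.3 to 25.2 M counts in the other groups. Mitochondrial genes took 3.99% ± 0.852 of counts in control and 2.59% ± 0.504 in split morulae (SD over embryos, n = 5 and 6). In blastocysts they took 4.20% ± 0.691 in control and 1.69% ± 0.572 in split embryos (SD over embryos, n = 3 and 6). Sisters were counted singly here and in the gene numbers that follow, so the split embryos are not independent. Thinned to 11.3 M counts, control morulae showed 12793 ± 325 genes and split morulae 10996 ± 593, and control blastocysts 14623 ± 783 and split blastocysts 13279 ± 733 (SD over the same embryos). These measures moved with the split groups and their part in the values above was not tested. Summed trophectoderm markers (6 of 6 present) had 581 to 1018 CPM in control morulae, 595 to 2063 in split morulae, 1772 to 2733 in control blastocysts and 4667 to 5997 in split blastocysts. Between the blastocyst groups most of the gap in this sum lay in Krt8 (610 ± 179 CPM in control, 1766 ± 142 in split) and Krt18 (824 ± 302 and 2603 ± 640), while Gata3 was at 754 ± 257 and 806 ± 165 and Eomes at 56.3 ± 14.1 and 29.6 ± 4.27 CPM (SD, n = 3 each). Krt8 and Krt18 did not pass there (edgeR adjusted p = 0.626 and 0.172). Their part was not tested either, and in whole embryos fewer cells of a type and less RNA per cell cannot be told apart. Defining markers of cumulus cells (Amh, Foxl2, Fshr and Inha) were at 0 in all units, and the 8 cumulus markers summed to at most 1.02 CPM. The 6 sperm markers summed to at most 5.51 CPM and the 6 fibroblast markers to at most 9.03 CPM, with Col1a2 and Col3a1 at 0 throughout. The 6 blood markers summed to 2.68 to 123 CPM, with the highest sum in a split morula pair. Ptprc and Lyz2 were at 0 throughout, while Hba-a1 reached 59.6 CPM and Cd74 62.1 CPM in split morulae. Hba-a1 also averaged 18.9 CPM in control 8-cell embryos. The 5 epiblast markers summed to 258 to 424 CPM in control and 298 to 410 in split blastocysts, with Pou5f1 at 7.32 ± 3.30 and 59.7 ± 15.5 CPM and Sox2 at 30.4 ± 11.3 and 11.8 ± 6.01 (SD, n = 3 each). The 4 primitive endoderm markers summed to 133 to 196 CPM in control and 71.9 to 103 in split blastocysts. The 6 oocyte markers summed to 14.1 to 69.7 CPM in control 8-cell embryos and 0.861 to 20.4 in control morulae, the step at which Anapc16 and Anapc7 fell. The part of these markers in the results was not tested.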

How the data were processed

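Single embryos were profiled by Smart-seq2, which primes polyadenylated RNA with oligo(dT). Per the submitters' processing notes, FastQC, MultiQC, cutadapt, HISAT2, featureCounts and edgeR were used with build GRCm39; versions, annotation, strand setting and treatment of multimapping reads are not given in the sources used here. The authors deposited raw counts per gene for 37229 genes and a table of TPM for 15625 genes that they had filtered. Here, counts of sister embryos were summed, and 15875 genes passing filterByExpr, all 10 members among them, were fitted over 18 units with TMM scaling and edgeR's robust quasi-likelihood test (edgeR 4.0.16, limma 3.58.1, DESeq2 1.42.0, R 4.3.3), 13 residual degrees of freedom, two-sided, Benjamini-Hochberg adjusted over all genes tested. The fit was tested on simulated data. CPM used TMM library sizes. TPM served only for levels between genes; limma on log2(TPM + 1) was an alternative.

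The members and lists were chosen with earlier results of these data known. Values in every unit are given for Anapc10 and for members called in 2 or more comparisons or with the largest fold in one; from other lists at most 4 called genes per comparison are named, besides Cdc20, Fzr1, Fbxo5, Ube2c, Ube2s and Ccnb1. Of the 5 genes nearest in pattern to Anapc10, 1 is not reported here. Per-unit values of Cdc16, Cdc23, Anapc1 and Anapc11 were added after their values were seen. No 2 columns of the tables were identical. Exon overlaps come from GENCODE M21 (GRCm38) and are not in the build of the counts; promoters come from RefSeq (GRCm38.p6). Floors cover counting error only.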

Additional observations from a re-analysis of the deposited data

How the results depend on the processing

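The number of members called was recomputed under 27 alternatives: DESeq2, upper-quartile scaling, 2 other filters, each split embryo as its own sample, limma-voom with origin as a random effect, a replicate block, limma on log2 TPM, the compared groups alone, and leaving out each of the 18 units. The numbers in brackets are calls over all genes in the same fits. Between control morulae and control blastocysts the count was 2 whichever unit was left out (1083 to 1852). Leaving out each unit gave 1 to 3 members from control 8-cell embryos to control morulae (3284 to 4167). Between the split stages it gave 0 to 1 (292 to 737). Between split and control blastocysts it gave 0 to 0 (408 to 845). Between split and control morulae it gave 0 to 1 (4 to 51). For the difference of the split effects it gave 0 to 1 (108 to 291). For the other alternatives, here and below, no number over all genes is given, so their member counts have no background beside them. With each split embryo as its own sample, 2 members were called between the split stages, Anapc7 being added (adjusted p = 0.0406). With the compared groups alone the counts were 0 between the split stages, 1 between split and control blastocysts and 0 between split and control morulae. For the difference of the split effects limma-voom and limma on log2 TPM gave 0 each. Of 1323 tested values of single members under the alternatives, 1272 kept direction and side of the threshold, 13 lost a call, 9 gained one, 29 changed sign without a call in either fit, and 0 calls reversed. Of 297 values described without a test, 4 changed sign (Anapc7, Anapc11 and Anapc15) and all stayed within the spread between units; Anapc10 was not past the threshold in 6 of 27 alternatives between split and control morulae and in 6 of 27 for the difference of the split effects. The cause was not tested. limma-voom moved the median log2 fold change of all genes by -0.36 to 0.45 over the comparisons, and limma on log2 TPM moved it by 0.27 between control morulae and control blastocysts and by -0.28 for the difference of the split effects. Anapc2 had 0 to 11.0 CPM in control 8-cell embryos, whose totals of 26.3 to 38.5 M counts were the largest of the groups. The source of that spread was not tested.

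The labels do not state that replicate numbers pair samples between groups. Deviations of same-numbered units from their group means correlated at -0.033 to 0.085. Units with different numbers were not compared, so these values cannot settle whether same-numbered units are linked. With the numbers as a replicate block, 1 member was called from control 8-cell embryos to control morulae, 0 between split and control morulae and 0 for the difference of the split effects.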
